A study of Mus musculus with 8 samples.

Results

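The YAP, TAZ and TEAD genes and 4 of their target genes were examined in mouse colon fibroblasts. The 10 members were chosen by gene name: the coactivator genes Yap1 and Wwtr1 (which encodes TAZ), the factor genes Tead1, Tead2, Tead3 and Tead4, and the targets Ccn1, Ccn2, Ankrd1 and Amotl2. All 10 were found, each as 1 Ensembl identifier, among the 55573 genes listed, and all 10 passed the filter on low counts. RNA came from 4 irradiated samples, given 3 fractions of 2 Gy, and from 4 non-irradiated samples. Both groups were colon fibroblasts of the C57BL6/J strain on culture plates, both had received APTKA conditioned medium in Advanced DMEM F12 with 10% FBS, and both were collected at 72 h, counted from the first dose. No group without the conditioned medium was analysed here. The labels do not say whether the libraries I to IV of a group are separate animals or cultures. The spread behind the p-values of the main tests is that between libraries, be it technical or biological.

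YAP and TAZ are transcriptional coactivators that do not bind DNA themselves. The Hippo kinases MST and LATS phosphorylate them and hold them in the cytoplasm, and when that brake is off, as on stiff surfaces or in spread cells, they enter the nucleus and act through TEAD factors. In fibroblasts the pathway is known for its part in mechanical sensing, matrix production and fibrosis. Ccn1 (also Cyr61) and Ccn2 (also CTGF) encode secreted matricellular proteins, Ankrd1 encodes an ankyrin repeat protein of the nucleus and sarcomere, and Amotl2 encodes an angiomotin that binds YAP and restrains it. Transcript levels do not report the phosphorylation or location of YAP and TAZ, through which the pathway is mainly regulated.

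All 10 are annotated as protein-coding genes (GENCODE M21, GRCm38). On the minus strand lie Yap1 at chr9:7931999-8004596, Wwtr1 at chr3:57455649-57575910, Tead3 at chr17:28331671-28350817, Tead4 at chr6:128224288-128300823, Ccn1 at chr3:145646976-145649981 and Ankrd1 at chr19:36111961-36120099. On the plus strand lie Tead1 at chr7:112679318-112906807, Tead2 at chr7:45215753-45233644, Ccn2 at chr10:24595442-24598683 and Amotl2 at chr9:102716672-102733418.

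The upstream sequences of 3 target genes are shown because TEAD factors read a short DNA word, the hexamer GGAATG, which is CATTCC on the opposite strand. RefSeq windows (build GRCm38.p6) were used for 7 of the 10 genes, and those of Tead1, Tead4 and Ccn2 were not analysed here. For the other 3 targets the 250 bases before the transcription start are printed here 5′ to 3′ on the strand of the gene, with each hexamer in capitals. The windows are chr3:145649986-145650235 on the minus strand for Ccn1, chr19:36119845-36120094 on the minus strand for Ankrd1 and chr9:102717554-102717803 on the plus strand for Amotl2.
Ccn1: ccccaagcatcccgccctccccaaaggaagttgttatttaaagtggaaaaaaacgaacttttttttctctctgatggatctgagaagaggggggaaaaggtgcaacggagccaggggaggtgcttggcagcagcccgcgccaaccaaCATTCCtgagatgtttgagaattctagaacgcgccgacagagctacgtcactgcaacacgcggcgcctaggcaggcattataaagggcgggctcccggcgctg
Ankrd1: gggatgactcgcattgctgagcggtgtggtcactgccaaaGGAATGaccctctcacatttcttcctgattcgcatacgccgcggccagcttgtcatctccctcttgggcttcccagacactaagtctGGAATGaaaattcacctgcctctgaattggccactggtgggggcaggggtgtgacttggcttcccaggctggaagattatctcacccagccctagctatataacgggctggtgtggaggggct
Amotl2: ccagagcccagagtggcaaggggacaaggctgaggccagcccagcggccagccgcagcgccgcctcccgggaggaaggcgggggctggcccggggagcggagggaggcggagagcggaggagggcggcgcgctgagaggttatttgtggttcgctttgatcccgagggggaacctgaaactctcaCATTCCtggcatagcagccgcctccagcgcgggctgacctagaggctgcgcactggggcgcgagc
In Ccn1 the hexamer began 103 bases and in Amotl2 65 bases before the start, both on the opposite strand. Ankrd1 held 2 copies on its own strand, beginning 210 and 123 bases before the start. The windows of Ankrd1 and Amotl2 lie inside the GENCODE bounds of these genes, so the distances hold for the RefSeq start used.

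The coactivator genes held the word too, and 30 bases around it are shown to set them beside their own targets. The stretches are chr9:8004720-8004749 for Yap1 and chr3:57576029-57576058 for Wwtr1, both on the minus strand.
Yap1: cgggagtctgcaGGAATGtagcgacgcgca
Wwtr1: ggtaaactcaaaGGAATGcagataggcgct
The hexamer began 141 bases before the start of Yap1 and 136 bases before the upstream start of Wwtr1, whose other annotated start counts the same site at 170 bases. Tead3 held it upstream of 2 of its 3 annotated starts, and the Tead2 window did not contain these letters. Searched on both strands, the hexamer stood in 6 of the 7 genes with a window. Among all 27025 genes with such windows 14.36% held it in at least 1 window, and 12.64% of all 32851 windows did. A match is a run of letters and does not show that a factor binds there.

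**Figure D1:**
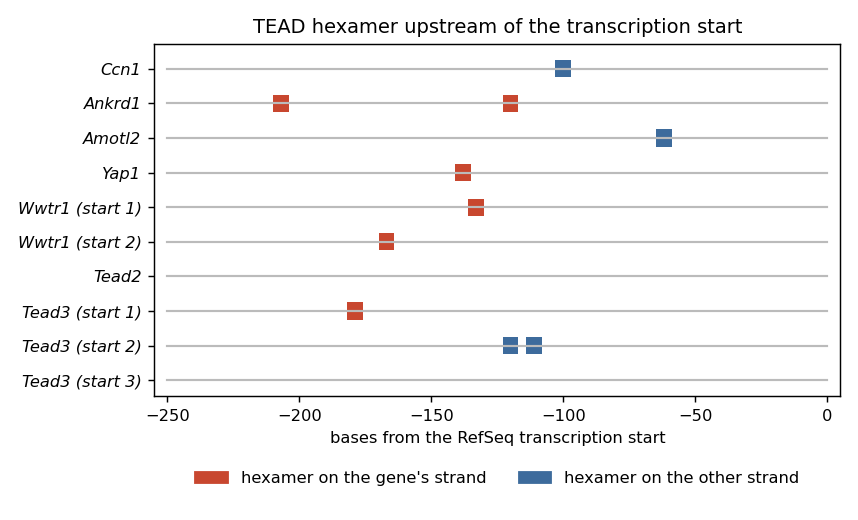
Position of the TEAD hexamer in the 250 bases upstream of each RefSeq transcription start, for the 7 genes with a window (x axis, bases from the start; 1 row per annotated start). Red marks lie on the strand of the gene and blue marks on the other strand; 8 of the 10 windows hold at least 1 mark, and those of Tead2 and of the third Tead3 start hold none.

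Total counts ran from 28731227 to 37157216 per library, and each member except Tead4 had at least 869 counts in every library. Tead4 had 116 to 147. All 10 fibroblast markers chosen for the check were tested, and their summed level was 17080 to 18931 CPM (counts relative to library size, scaled between libraries with TMM factors) in irradiated and 18972 to 21803 CPM in non-irradiated libraries. The 10 epithelial markers were each under 1 CPM on average and summed to 1.12 to 1.65 CPM in irradiated and 1.03 to 2.16 CPM in non-irradiated libraries. Of the 10 fibroblast markers 2 were called lower, beside 4.15% of all tested genes, Col1a2 (log2 fold change -0.24, edgeR adjusted p = 0.0101) and Vim (-0.14, 0.0462), and the part of this shift in the members' values was not tested. In irradiated libraries the 8 endothelial markers summed to 11.1 to 13.3 CPM, the 8 haematopoietic markers to 3.996 to 5.11 CPM, the 6 glial and neuronal markers to 4.38 to 5.06 CPM and the 5 mesothelial markers to 0.908 to 1.19 CPM. In non-irradiated libraries the same sums were 11.7 to 13.2, 3.69 to 4.76, 3.90 to 5.31 and 0.668 to 1.14 CPM. Most of the haematopoietic sum was Cd68, at 3.76 CPM in irradiated and 3.42 CPM in non-irradiated libraries on average. Tyrobp, another haematopoietic marker, had 0 counts in every library. Irradiated libraries I and II stood apart in mitochondrial rRNA, with 15271 and 15425 CPM, against 4361 and 5906 CPM in irradiated III and IV and 4203 to 5874 CPM in the non-irradiated libraries.

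Tead1 was the single member called between irradiated and non-irradiated libraries. At an adjusted p under 0.05 in edgeR, 0 of 10 members were higher and 1 was lower, while 2.59% of all 15259 tested genes were called higher and 4.15% lower, or 6.74% in either direction. The CPM ranges of the groups did not overlap for 1 member, Tead1, and for 14.2% of all tested genes (8.07% with the irradiated group lower and 6.13% with it higher). Before adjustment 2 members, Tead1 and Wwtr1, had p under 0.05, as did 21.2% of all tested genes. Of the 10 log2 fold changes (irradiated over non-irradiated throughout), 8 were below 0, with a median of -0.07 over the members and 0.00 over all tested genes. A share of 1 in 10 is a count of 1 gene, and nothing particular to the list is read from it.

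**Figure D2:**
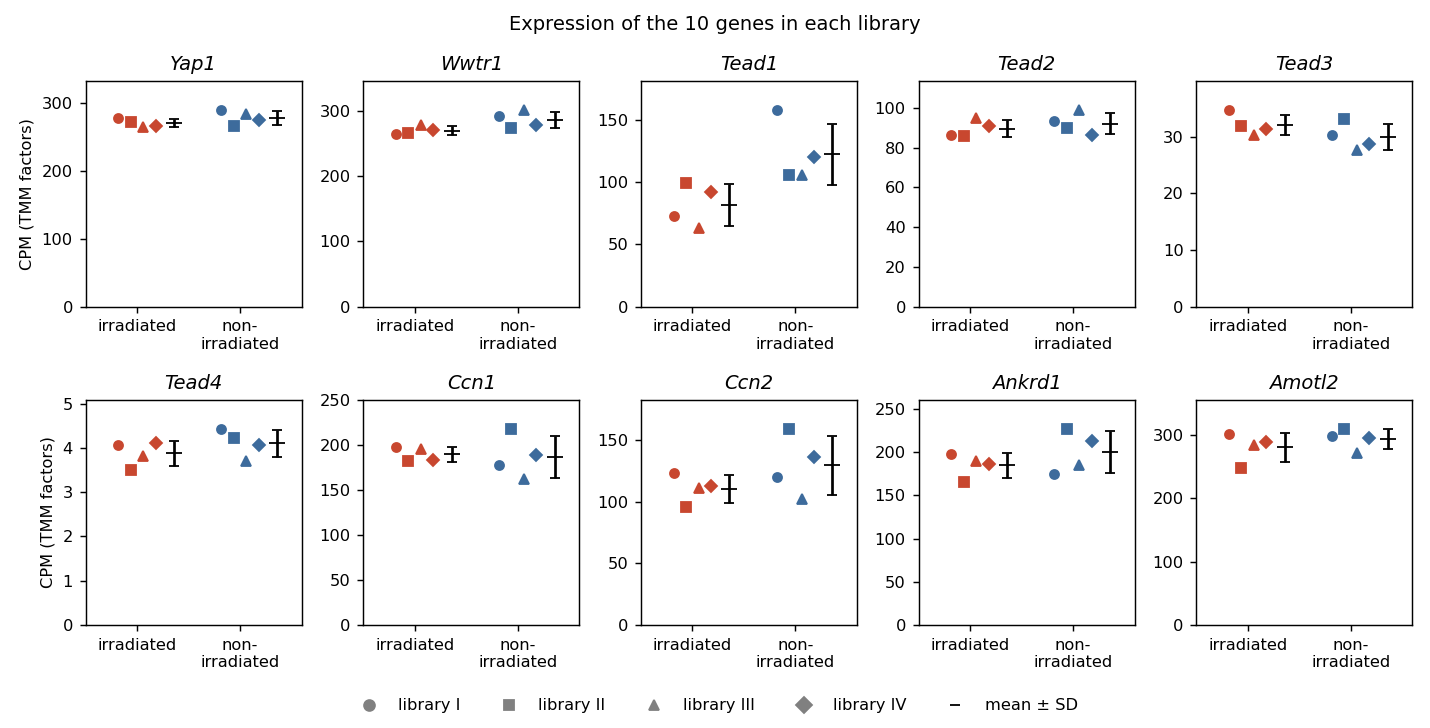
CPM of each member (y axis from 0, scaled with TMM factors) in the 4 irradiated libraries (red, left) and the 4 non-irradiated libraries (blue, right), with the group mean ± SD in black and 1 marker shape per library numeral. Tead1 is the gene whose groups do not overlap (62.9 to 99.5 against 105 to 157 CPM), and non-irradiated library II is the highest of its group for all 4 targets and for Tead3.

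Yap1, the gene of the coactivator YAP, had 278, 272, 265 and 266 CPM in irradiated libraries I to IV, against 289, 266, 285 and 275 CPM in non-irradiated libraries I to IV. The groups overlapped, with 3 of the 4 irradiated libraries at or under the 275 CPM of non-irradiated IV. The means were 270.3 ± 6.03 and 279 ± 10.3 CPM (SD, n = 4 each), a log2 fold change of -0.04 (SE 0.04, edgeR adjusted p = 0.524). Its 95% interval in fold ran from 0.919 to 1.02 times the non-irradiated level.

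Wwtr1, which encodes TAZ, had 264, 267, 279 and 271 CPM in irradiated and 292, 274, 301 and 279 CPM in non-irradiated libraries. Irradiated library III reached into the non-irradiated range, and the other 3 lay below it. The log2 fold change was -0.08 (SE 0.04, edgeR adjusted p = 0.216), with a 95% interval of 0.891 to 0.998 in fold before adjustment over all genes. The unadjusted p of 0.042 was not held after that adjustment. The balance of the pair was tested as the ratio of Wwtr1 to Yap1 counts within a library, which needs no scaling between libraries. It was 0.949, 0.981, 1.05 and 1.02 in irradiated and 1.01, 1.03, 1.06 and 1.01 in non-irradiated libraries. The difference in log2 ratio was -0.04 (two-sided exact permutation p = 0.314 over 70 arrangements, 0.314 after adjustment over the 2 ratios tested, n = 4 each).

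Tead1, a TEAD factor gene (ENSMUSG00000055320), was lower after irradiation. It had 72.7, 99.5, 62.9 and 91.6 CPM in irradiated libraries I to IV and 157, 106, 105 and 119.9 CPM in non-irradiated libraries I to IV. The highest irradiated library, II, lay just under the lowest non-irradiated ones, II and III, so the groups were separate by a small gap, and both groups were wide. The means were 81.7 ± 16.8 and 122 ± 24.5 CPM (SD, n = 4 each), and the log2 fold change was -0.58 (SE 0.14, edgeR adjusted p = 0.0258), which is 0.669 times the non-irradiated level with a 95% interval of 0.541 to 0.827.

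The Tead1 call depended on single libraries. It was lost, with the same direction, without irradiated I (adjusted p = 0.0812), irradiated III (0.0633), non-irradiated I (0.0769) or non-irradiated IV (0.0537), with DESeq2 (0.0539) and when non-irradiated I and III were both left out (0.0754). It was kept without the 2 libraries rich in mitochondrial rRNA (log2 fold change -0.66, adjusted p = 0.0474) and with the trends on GC content and exon length removed (-0.54, 0.0163). Over the 19 alternatives the adjusted p lay between 1.56e-29, in the fit without a low-count filter, and 0.0812. At nearly the same log2 fold change (-0.58), so small a p does not reflect the spread of Tead1 between libraries. Calls by the fit without a low-count filter are therefore listed below without being read as support. Among 3854 tested genes within 2-fold of its mean CPM, the spread of Tead1 within groups (pooled SD of log2 CPM 0.29, against a median of 0.06) was higher than in 99.8% of them.

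The other 3 TEAD genes showed no change that passed the test. Tead2, known from early embryos and neural progenitors, had 86.3, 86.1, 94.96 and 90.9 CPM in irradiated and 93.2, 89.8, 98.7 and 86.4 CPM in non-irradiated libraries, with both groups spanning almost the same range (log2 fold change -0.04, SE 0.05, adjusted p = 0.710). Tead3, known from placenta, had 34.7, 31.9, 30.3 and 31.4 CPM in irradiated and 30.3, 33.1, 27.7 and 28.7 CPM in non-irradiated libraries (0.10, SE 0.06, adjusted p = 0.378). It was the TEAD gene with a value above 0, and the groups overlapped. Tead4, needed for the trophectoderm of the mouse embryo, was the lowest member, at 4.07, 3.51, 3.83 and 4.12 CPM in irradiated and 4.43, 4.23, 3.71 and 4.07 CPM in non-irradiated libraries (-0.08, SE 0.10, adjusted p = 0.709).

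The TEAD genes were compared with each other per length, as CPM per kb of merged exons. Tead2 gave 61.2 ± 3.42% of the TEAD signal in irradiated and 56.9 ± 3.57% in non-irradiated libraries (SD, n = 4 each). Tead1 gave 19.6 ± 3.62% and 26.5 ± 3.83%, Tead3 15.6 ± 1.18% and 13.2 ± 1.33%, and Tead4 3.53 ± 0.279% and 3.38 ± 0.230%. The summed TEAD level was 29.7, 31.0, 30.1 and 31.6 CPM per kb in irradiated and 36.8, 32.6, 33.5 and 32.3 CPM per kb in non-irradiated libraries. These sums did not overlap, and no test was made of them, since the sum holds Tead1. The share of Tead1 depends on its merged exon length of 13570 bases, the longest of the 10, which counts all annotated isoforms.

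Ccn1, the target with the highest level per length, did not differ measurably. It had 197, 182, 196 and 183 CPM in irradiated and 178, 218, 163 and 189 CPM in non-irradiated libraries. The irradiated values all lay inside the non-irradiated range. The log2 fold change was 0.02 (SE 0.07, edgeR adjusted p = 0.907), its 95% interval in fold was 0.914 to 1.13, and its sign turned in 4 of 19 alternatives.

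Ccn2, the target gene with the largest estimated change, had 123, 95.8, 111 and 113 CPM in irradiated and 119.9, 159, 102 and 137 CPM in non-irradiated libraries. Irradiated II was the lowest of the 8 and non-irradiated II and IV were the highest, but the groups overlapped. The means were 111 ± 11.4 and 129.6 ± 24.2 CPM (SD, n = 4 each), a log2 fold change of -0.22 (SE 0.11, edgeR adjusted p = 0.258) with a 95% interval of 0.727 to 1.01 in fold. It was called when non-irradiated I and III were left out together (log2 fold change -0.42, adjusted p = 0.0136) and without a low-count filter (-0.22, 0.000183), and without non-irradiated II alone its log2 fold change was -0.11. Non-irradiated I and III were the lowest of their group for Ccn2, so leaving both out could only enlarge the fall. On the opposite strand Gm15270 shares 665 of the 2861 exon bases of Ccn2, or 23.2%, and was itself assigned 11 to 32 counts per library. The strand setting of the counting is not given in the sources used here, so how reads from the shared bases were assigned is not known.

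The balance of the 2 CCN targets was tested as the ratio of Ccn2 to Ccn1 counts. The ratio was 0.625, 0.527, 0.568 and 0.617 in irradiated and 0.672, 0.731, 0.630 and 0.723 in non-irradiated libraries. All 4 irradiated ratios lay below all 4 non-irradiated ones, by a gap between 0.625 and 0.630 at the closest. The means were 0.584 ± 0.0459 and 0.689 ± 0.0473 (SD, n = 4 each), a difference of -0.24 in log2 ratio. The two-sided exact permutation p = 0.0286 is the smallest that 4 against 4 allows, and after adjustment over the 2 ratios p = 0.0571 misses the threshold. With this design a ratio could pass only if the other ratio also had p under 0.05, whatever the size of its difference.

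Ankrd1 had 198, 165, 190.1 and 186 CPM in irradiated and 175, 227, 185 and 213 CPM in non-irradiated libraries. The groups overlapped, with non-irradiated II and IV above every irradiated library (log2 fold change -0.11, SE 0.08, edgeR adjusted p = 0.416). With non-irradiated I and III left out the gene was called lower (-0.25, adjusted p = 0.0337). Those libraries, at 175 and 185 CPM, were the lowest of their group, so leaving them out could only enlarge the fall. Since Ankrd1 is also known as a gene of striated muscle, the 8 striated muscle markers were summed. They gave 6.19 to 7.05 CPM in irradiated and 5.999 to 8.16 CPM in non-irradiated libraries. Most of this was Ttn, at 5.07 CPM in irradiated and 5.39 CPM in non-irradiated libraries on average, while the cardiac myosin gene Myh6 had 0 counts.

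Amotl2 had 302, 248, 284 and 289 CPM in irradiated and 299, 309.7, 272 and 295 CPM in non-irradiated libraries. Irradiated II was the lowest of all and the other 7 libraries lay between 272 and 309.7 CPM. The log2 fold change was -0.07 (SE 0.06, edgeR adjusted p = 0.541) and the 95% interval in fold ran from 0.878 to 1.04.

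**Figure D3:**
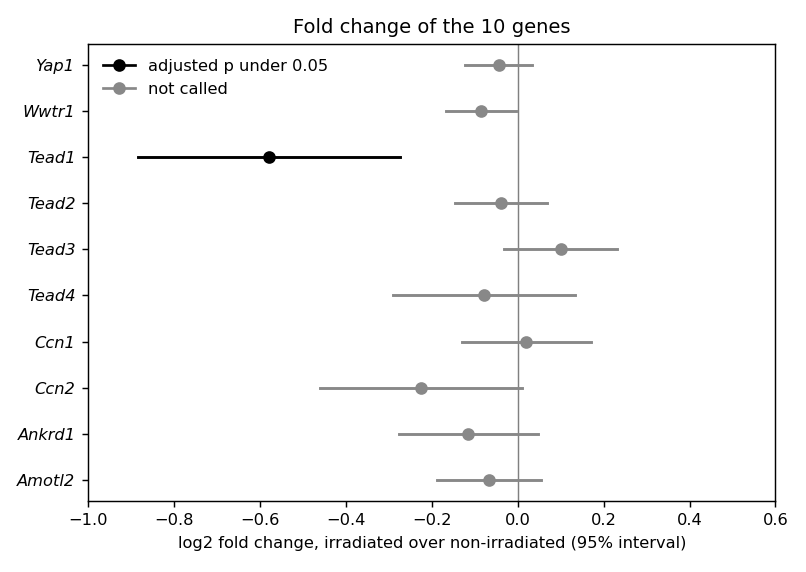
Log2 fold change, irradiated over non-irradiated, of each member with its 95% interval from the edgeR fit (x axis, before adjustment over all genes); black marks an adjusted p under 0.05. Tead1 at -0.58 is the member called, and the interval of Wwtr1 ends just below 0 before adjustment, and those of the other 8 members include 0.

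Levels per length placed Ccn1 and Ankrd1 first, mixed the coactivators with the other targets, and placed the TEAD genes last. In irradiated libraries the order in CPM per kb was Ccn1 (93.9 ± 4.004), Ankrd1 (64.0 ± 4.85), Wwtr1 (56.5 ± 1.36), Amotl2 (44.6 ± 3.63), Ccn2 (38.8 ± 3.97), Yap1 (29.2 ± 0.652), Tead2 (18.7 ± 0.883), Tead1 (6.02 ± 1.24), Tead3 (4.78 ± 0.274) and Tead4 (1.08 ± 0.0770; SD, n = 4). The order was the same in non-irradiated libraries, where Ccn1 stood at 92.6 ± 11.5, Tead1 at 8.996 ± 1.80 and Tead3 at 4.46 ± 0.349 CPM per kb. In both groups the library ranges of Ankrd1 and Wwtr1, and those of Amotl2 and Ccn2, overlapped. Tead1 and Tead3 overlapped in irradiated libraries and were separate in non-irradiated ones.

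**Figure D4:**
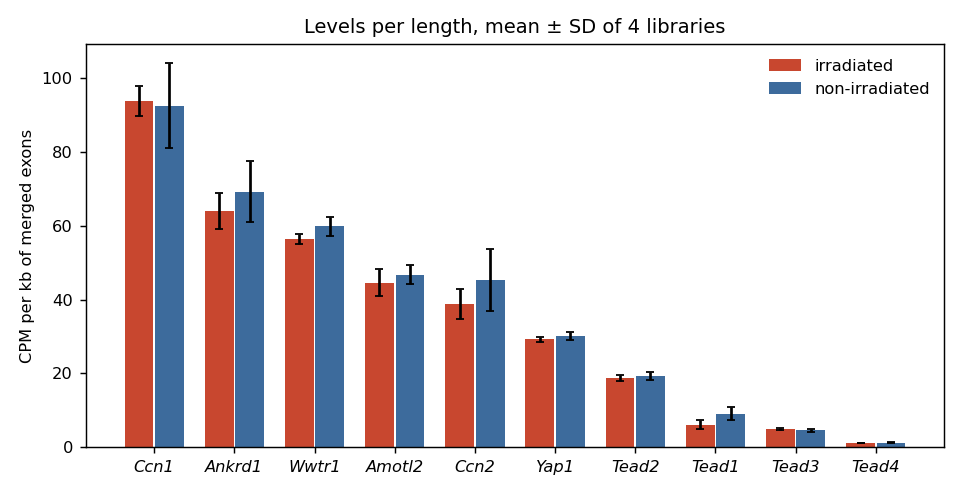
Mean level per length of each member in CPM per kb of merged exons (y axis from 0), irradiated in red on the left of each pair and non-irradiated in blue, with SD over 4 libraries as error bars. Ccn1 is highest at 93.9 and 92.6 and Tead4 lowest at 1.08 and 1.14.

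The members differed in how much they varied between libraries of a group. The coactivators were even, with a coefficient of variation of 2.23% for Yap1 and 2.41% for Wwtr1 in irradiated and 3.70% and 4.29% in non-irradiated libraries. The targets spread more than the coactivators, at 4.26% (Ccn1), 10.3% (Ccn2), 7.58% (Ankrd1) and 8.13% (Amotl2) in irradiated libraries, and between 5.44% (Amotl2) and 18.7% (Ccn2) in non-irradiated libraries. The TEAD genes ran from 4.72% (Tead2) to 20.6% (Tead1) in irradiated and from 5.69% (Tead2) to 20.1% (Tead1) in non-irradiated libraries. A wider spread was thus not particular to the targets. Set against tested genes within 2-fold of the same mean CPM, the within-group SD of log2 CPM was higher than in 96.6% of them for Ccn1, 99.4% for Ccn2, 97.6% for Ankrd1 and 90.1% for Amotl2, but than in 30.4% for Yap1 and 40.4% for Wwtr1.

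The 4 targets took most of their extremes in the same libraries. Irradiated I was the highest and irradiated II the lowest of the irradiated libraries for all 4. Non-irradiated II was the highest of its group for all 4, and non-irradiated III the lowest for Ccn1, Ccn2 and Amotl2, with non-irradiated I the lowest for Ankrd1. Tead3, a factor gene, shared the high irradiated I and non-irradiated II and the low non-irradiated III, so the order was not particular to the targets. Yap1 and Wwtr1 went another way, with non-irradiated II the lowest of its group for both. These 8 libraries are few, and the orders are a description.

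**Figure D5:**
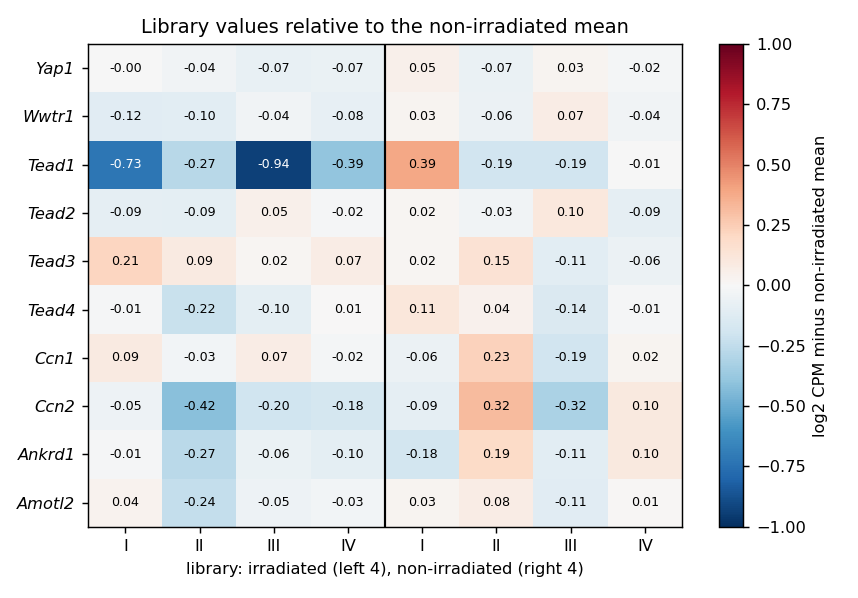
Log2 CPM of each member in each library minus its mean over the 4 non-irradiated libraries (colour and printed value; irradiated I to IV on the left of the line, non-irradiated I to IV on the right). The row of Tead1 is the deepest blue on the left, with irradiated III at -0.94 and irradiated I at -0.73, and in non-irradiated II the 4 target rows and that of Tead3 are red, at 0.08 for Amotl2 and 0.15 for Tead3.

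Likeness between genes was measured as the mean absolute difference of centred log2 CPM over the 8 libraries, among 10348 tested genes with at least 5 CPM. By this measure Yap1 was closest to Igf2bp2 (0.011) and Golga3 (0.015), and Wwtr1 to Vangl1 (0.0073) and Anxa4 (0.012). Ccn1 was closest to Steap4 (0.034) and Xkr6 (0.042), Ccn2 to Siglecg (0.057) and Fgd3 (0.066), Ankrd1 to Podnl1 (0.037) and Dus4l (0.044), and Amotl2 to Sytl2 (0.030) and Ddah1 (0.032). No member was among the 2 nearest genes of another of these. The measure is not scaled by a gene's own mean absolute deviation, which was 0.038 for Yap1, 0.048 for Wwtr1 and 0.173 for Ccn2. Ranks therefore need not be alike in both directions. Among all genes, Ankrd1 held rank 22 in likeness to Ccn2, but Ccn2 held rank 612 in likeness to Ankrd1. Amotl2 and Ccn1 held ranks 110 and 140 in likeness to Ccn2, while Ccn2 held rank 6951 for Amotl2 and 6092 for Ccn1. Amotl2 held rank 57 for Ankrd1 and Ankrd1 rank 615 for Amotl2. Yap1 held rank 508 in likeness to Wwtr1, and Tead2 rank 209.

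The genes closest to Tead1 in library pattern were looked up after its values were seen. The zinc finger gene Zfp469 came closest, at a mean absolute difference of 0.066 where Tead1 itself deviated by 0.30 on average. Zfp469 had 19.9, 27.0, 16.6 and 23.3 CPM in irradiated and 38.1, 27.7, 30.7 and 29.6 CPM in non-irradiated libraries. It repeated the low irradiated III and the high non-irradiated I of Tead1 (log2 fold change -0.54, adjusted p = 0.0222). Raph1, which encodes the actin regulator lamellipodin (0.099), Iqsec2 (0.11) and Parp4 (0.12) followed. Their log2 fold changes were -0.44, -0.42 and -0.39 with edgeR adjusted p = 0.0328, 0.0428 and 0.0959. The likeness measure includes the difference between the groups, so genes picked as like Tead1 tend to fall with it. Their falls and p-values are therefore not read as support.

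Of 26 Hippo genes upstream of YAP and TAZ (kinases, adaptors and angiomotins), edgeR called 0 higher and 0 lower, where 2.59% of all tested genes were called higher and 4.15% lower, so that the count is near the background. At an unadjusted p under 0.05 there were 5 (1 higher, 4 lower), beside 21.2% of all tested genes. DESeq2 called Amotl1 lower, limma-voom called 0, and the fit without a low-count filter called Fat4 lower. The list had a median log2 fold change of 0.01, with 13 estimates on each side of 0, beside 0.00 over all tested genes. The list includes the MST kinase genes Stk3 and Stk4 and the LATS kinase genes, and its fold changes ran from -0.19 to 0.09. Map4k4, a kinase that acts beside MST, was the most abundant of the list in CPM, at 1303 ± 22.0 CPM in irradiated and 1273 ± 62.5 CPM in non-irradiated libraries (SD, n = 4 each; 0.03 in log2 fold change, edgeR adjusted p = 0.695). Lats2, both a kinase of the brake and a YAP target, stood at 85.6 ± 5.64 CPM in irradiated and 83.6 ± 3.93 CPM in non-irradiated libraries (0.03, adjusted p = 0.775).

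Of 18 genes, beyond the members, of a published YAP and TAZ target signature, known from human cells, 17 were tested. Lats2 and Ptpn14 among them were also counted with the Hippo genes. Of these 1 was called higher and 1 lower, where 6.74% of all tested genes were called in either direction, and the median log2 fold change was -0.01. A count of 2 genes says nothing particular to the signature. At an unadjusted p under 0.05 there were 6 (2 higher, 4 lower), beside 21.2% of all tested genes. The signature was not tested as a set. Nt5e, which encodes the ecto-nucleotidase CD73, had 2.27, 1.88, 1.76 and 1.91 CPM in irradiated and 2.89, 3.40, 2.76 and 2.80 CPM in non-irradiated libraries. The groups were separate, and the gene fell with a log2 fold change of -0.60 (SE 0.13, edgeR adjusted p = 0.0118), a call kept without any single library. Nuak2, a kinase gene, had 52.9, 49.7, 51.3 and 47.2 CPM in irradiated and 46.4, 44.5, 44.2 and 41.6 CPM in non-irradiated libraries. It rose with a log2 fold change of 0.19 (SE 0.05, adjusted p = 0.0290), and the call was lost without irradiated I, II or III or non-irradiated III or IV, with adjusted p up to 0.0961, and with irradiated I and II left out together (0.238). Axl, the receptor tyrosine kinase with the highest CPM of the list, stood at 1459 ± 42.1 CPM in irradiated and 1459 ± 43.1 CPM in non-irradiated libraries (0.00 in log2 fold change, adjusted p = 0.996). Igfbp3, with 39 counts in total, was too low to test.

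Of 8 TEAD cofactors of the Vestigial-like family and remaining CCN genes, 5 were tested and edgeR called 0, where 6.74% of all tested genes were called in either direction. At an unadjusted p under 0.05 there were 2 (1 higher, 1 lower), beside 21.2% of all tested genes, and DESeq2 and limma-voom each called 0. Vgll3, a TEAD cofactor, stood at 173 ± 13.4 CPM in irradiated and 154 ± 15.0 CPM in non-irradiated libraries (log2 fold change 0.16, SE 0.07, adjusted p = 0.185), and was called without a low-count filter (0.17, 0.0102). Vgll1 and Vgll2 had 0 counts in all libraries, which allows up to 3 counts in each, and Ccn6 had 5 counts in all.

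The actin-sensing MRTF and SRF genes share several targets with YAP and were set beside them. Of 12 genes, 0 were called higher and 3 lower, where 2.59% of all tested genes were called higher and 4.15% lower, and the median log2 fold change was -0.13. At an unadjusted p under 0.05 there were 0 higher and 4 lower, beside 21.2% of all tested genes in either direction. DESeq2 and limma-voom also called 0 higher. Vcl, which encodes the focal adhesion protein vinculin, had 234, 219.7, 222 and 218 CPM in irradiated and 263, 263, 238 and 253 CPM in non-irradiated libraries, and fell with a log2 fold change of -0.19 (SE 0.04, edgeR adjusted p = 0.0125). With irradiated I and II left out together it missed the threshold (0.0520). Actg2 and Acta2, the smooth muscle actin genes, fell with log2 fold changes of -0.20 (adjusted p = 0.0263) and -0.25 (0.0402), and 5 of the 8 fits that leave out 1 library lost each call, with adjusted p up to 0.0987 and 0.116. Myh9, the non-muscle myosin gene with the highest CPM of the list, stood at 4549 ± 199 CPM in irradiated and 4526 ± 169 CPM in non-irradiated libraries (0.01, adjusted p = 0.948).

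Markers of contractile cells moved in part with the groups. The 7 smooth muscle markers summed to 437 to 509 CPM in irradiated and 499.6 to 535 CPM in non-irradiated libraries, with 1 called higher (Synpo2) and 1 lower (Actg2). Over all tested genes 2.59% were called higher and 4.15% lower. Actg2 held 291 CPM in irradiated and 334 CPM in non-irradiated libraries on average, and was already counted among the MRTF and SRF genes. The 5 pericyte markers summed to 92.6 to 103 CPM in irradiated and 75.7 to 88.3 CPM in non-irradiated libraries, nearly all of it Notch3, while the other 4 were each under 1 CPM. Notch3 was called higher, at 96.7 ± 5.04 CPM in irradiated and 80.1 ± 6.31 CPM in non-irradiated libraries (log2 fold change 0.27, edgeR adjusted p = 0.0109; SD, n = 4 each), and its groups did not overlap. In bulk RNA, fewer cells of a type and less RNA per cell cannot be told apart. The part of these shifts in the values of Tead1, Ccn2 or the contractile genes was not tested.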

How the data were processed

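The authors deposited raw read counts per Ensembl gene, 1 file per library and not normalized. Build mm10 and the programs STAR 2.5.2a, featureCounts 1.5.0-p1 and bcl2fastq 2.20.0.422 are named, per the submitters' processing notes. How multi-mapping reads, strand and annotation release were set was not given in the sources used here. Identifiers were matched to GENCODE M21 symbols (55480 of 55573; the other 93 held 0.000431% of counts). The test on the counts was that of edgeR 4.0.16 (R 4.3.3): TMM factors, filterByExpr (minimum count 10, minimum total 15, 15259 genes kept), quasi-likelihood test on all 8 libraries with group as the only term, Benjamini-Hochberg adjustment over all genes tested, and calls at 0.05. The SE is the absolute log2 fold change over the square root of F. CPM use the TMM factors; log2 CPM use a prior count of 2. Limits for 0 counts cover counting error only. Alternatives were DESeq2 1.42.0, limma-voom (limma 3.58.1), RLE or upper-quartile factors, other filters, a threshold of 0.01, a replicate block, leaving out libraries, and an offset for GC content and length, chosen after seeing the data. The pipeline was tested on simulated data.

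The members, lists, tests and pairs of libraries left out were chosen with earlier results of these data known. Named were all members and, from each other list, up to 4 called genes by smallest adjusted p and the 1 further gene with the highest mean CPM; Lats2, Igfbp3 and genes with 0 or few counts were added after their values were seen, as were the genes like Tead1. The upstream word was searched in RefSeq windows as it reads and as its reverse complement.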

Additional observations from a re-analysis of the deposited data

How the results depend on the processing

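Over 19 alternatives 0 members were called higher in any. The count of members called lower was 1, against 2 without a low-count filter (Ccn2 and Tead1), 2 without non-irradiated I and III (Ankrd1 and Ccn2), 0 with DESeq2, 0 at a threshold of 0.01, and 0 to 1 when single libraries were left out. The calls without a low-count filter are listed only. Non-irradiated I and III were the lowest of their group for both Ankrd1 and Ccn2, so leaving them out could only enlarge those falls. The log2 fold change of Tead1 stayed negative throughout, from -0.69 to -0.43. Signs turned for uncalled genes: Tead2 to 0.013 without irradiated I and II and 0.025 without non-irradiated I and III; Ccn1 to -0.10 without non-irradiated I and III, -0.00090 with the GC and length trends removed, and between -0.041 and 0.10 without single libraries; Axl to -0.013 without irradiated I and II, -0.028 without non-irradiated I and III, and between -0.019 and 0.022 without single libraries; Myh9 to between -0.017 and 0.031 without single libraries. The Wwtr1 to Yap1 ratio difference turned to 0.010 without irradiated I and II, and the Ccn2 to Ccn1 difference stayed between -0.32 and -0.19. The cause of these shifts was not tested.

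All genes called higher numbered 395, with 648 without a filter, 140 at 0.01 and 221 to 402 without single libraries (lowest without irradiated IV, and 234 without irradiated III and 257 without non-irradiated I); genes called lower numbered 634, with 296 at 0.01, 295 without irradiated I and II and 415 to 611 without single libraries (lowest without irradiated IV). Hippo genes called lower went to 1 (Fat4 without a filter, without non-irradiated I, and without it and III, Amotl1 with DESeq2), and to 0 to 1 without single libraries. Signature genes called higher were 2 with upper-quartile factors, no filter, the 1 CPM filter, the replicate block, DESeq2 and without non-irradiated I and III (Foxf2 joining Nuak2), 0 at 0.01 and 0 to 1 without single libraries. Those called lower were 2 with the block and DESeq2 (Dock5 joining Nt5e), 3 without non-irradiated I and III, 0 at 0.01 and 1 to 3 without single libraries. Of the cofactor and CCN genes, 1 was higher and 1 lower without a filter, and 1 (Ccn4) lower with the block, without non-irradiated I and III, and in 0 to 1 without single libraries. MRTF and SRF genes called lower were 0 at 0.01, 0 without irradiated I and II and 1 to 3 without single libraries.

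Whether the numerals pair the libraries was not settled. Deviations of same-numbered libraries correlated at 0.025, -0.033, 0.27 and 0.15, and 1 of 4 irradiated libraries matched its own numeral best. With so few libraries these values cannot exclude a pairing. All genes called numbered 550 higher and 802 lower with the replicate block, against 395 and 634 in the main fit. With the replicate block Tead1 kept its call (log2 fold change -0.58, adjusted p = 0.0200) and members called lower stayed at 1. No count differed for the members with the other scalings. Depth limits Tead4 most, at 116 to 147 counts per library. Libraries of a group were not evenly alike, by the chi-square per degree of freedom between the gene counts of 2 libraries. It was 5.46 for irradiated I against II and 5.12 for III against IV, but 15.99 to 27.55 for the other irradiated pairs. For non-irradiated II against IV it was 5.29, and 8.60 to 13.93 for the other pairs. The main tests take the 4 libraries of a group as independent, which was not settled. A ratio test without 2 libraries of a group, or with the replicate block, cannot pass the threshold and says nothing about stability. With all libraries, or with a single library left out, a ratio could pass after adjustment only if the other ratio was also under the threshold.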
